A study of Mus musculus with 2 samples.

Results

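The hypoxia-inducible factor genes and the genes of the oxygen sensors that control them were followed in the newborn mouse heart. The set held 10 genes of the 43346 in the deposited gene tables, found by their symbols in the GENCODE annotation. They were the alpha subunit genes Hif1a, Epas1 and Hif3a, the partner subunit gene Arnt, the prolyl hydroxylase genes Egln1, Egln2 and Egln3, the ubiquitin ligase subunit gene Vhl, the asparagine hydroxylase gene Hif1an and the target gene Bnip3. The series had 1 group, hearts taken on the day of birth (age 0 days) from mice labelled healthy, of strain B6NTac;B6NCrl/Lap, with both sexes mixed and no genotype or treatment given. It had 2 biological replicates from independent tissue isolates, of which replicate 1 pooled 15 mice and the number for replicate 2 was not given. Ribosomal RNA was depleted from total RNA above 200 nucleotides, and stranded paired reads of 101 nucleotides were sequenced. With 1 group and 2 samples no test between conditions was possible, so levels are given with the spread of both replicates and without p-values.

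Hypoxia-inducible factors are transcription factors made of an oxygen-labile alpha subunit and the stable partner ARNT. When oxygen is plentiful, the prolyl hydroxylases encoded by the Egln genes modify prolines of the alpha subunit, the VHL protein then binds it, and the proteasome degrades it. The enzyme encoded by Hif1an modifies an asparagine near the end of the alpha subunit and keeps it from the coactivators p300 and CBP. The heart develops in low oxygen and meets higher oxygen at birth, when its fuel shifts from glucose and lactate towards fatty acids. Since the alpha subunits are controlled mainly through protein stability, and only RNA was measured, the levels below are those of the transcripts and not of the proteins.

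The coding sequences of the alpha subunits differed in their matches of the patterns around the hydroxylated residues. The coding sequence of the leading annotated model of each gene was searched for codons of leucine, any 2 residues, leucine, alanine and proline, and for codons of aspartate, cysteine, glutamate, valine and asparagine. Hif1a and Epas1 each had 2 proline sites and 1 asparagine site. Hif3a had 1 proline site and no match of the asparagine pattern. Exact matches alone were counted, and hydroxylation itself was not measured. The windows below run 5′ to 3′ on the coding strand (GENCODE M21 on GRCm38), with the codon of the proline or asparagine in capitals.
Hif1a, proline 402, chr12:73939680-73939715, exon 9: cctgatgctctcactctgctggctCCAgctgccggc
Hif1a, proline 577, chr12:73941967-73942002, exon 12: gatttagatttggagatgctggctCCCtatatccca
Epas1, proline 405, chr17:86824561-86824596, exon 9: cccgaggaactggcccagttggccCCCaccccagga
Epas1, proline 530, chr17:86827504-86827539, exon 12: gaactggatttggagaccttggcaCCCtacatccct
Hif3a, proline 489, chr7:17041196-17041231, exon 12: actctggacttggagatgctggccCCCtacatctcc
Hif1a, asparagine 813, chr12:73945608-73945640, exon 15: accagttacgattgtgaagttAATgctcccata
Epas1, asparagine 851, chr17:86831007-86831039, exon 16: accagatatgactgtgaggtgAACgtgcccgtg
Each window lay within a single exon, and the residue numbers count from the first methionine of the model.

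The libraries held 69946215 and 73615802 expected counts in genes. An expected count is the estimated number of fragments of a gene, and TPM is that count per effective length, scaled to the same total in each library. Markers of cardiomyocytes were detected in full (6 of 6 genes, summing to 9248 TPM in replicate 1 and 9441 in replicate 2), as the tissue label says. Endothelial markers (7 of 7 detected) summed to 250 and 235 TPM, fibroblast markers (5 of 5) to 292 and 390 TPM, and macrophage markers (4 of 5) to 30.4 and 33.1 TPM. The isolates differed more in other cell types: smooth muscle markers (4 of 4) summed to 306 and 629 TPM, bladder epithelium markers (1 of 5) to 5.41 and 82.8, lymphoid markers (none of 5 detected in both, Cd3e at 0) to 6.72 and 0.55, and lung markers (none of 3) to 3.90 and 0.22. Erythroid markers (5 of 6, Klf1 at 0) summed to 3111 and 3724 TPM, and liver markers (2 of 3) to 19.9 and 24.8. The part of these cell types in the values below was not tested, and in whole tissue fewer cells of a type and less RNA per cell cannot be told apart.

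All 10 genes were detected, which means at least 1 TPM in both replicates. The same limit was passed by 47.1% of nuclear protein-coding genes and by 24.2% of all genes. Bnip3 had the highest level and Hif1an the lowest, and the means spanned 79.7 to 3.61 TPM. Among the 21461 nuclear protein-coding genes Bnip3 stood at rank 478 by mean TPM, Hif1a at rank 1129, Egln2, Egln1 and Egln3 at ranks 2112, 2174 and 2673, Epas1 and Hif3a at ranks 4398 and 4597, Vhl and Arnt at ranks 5748 and 6128, and Hif1an at rank 7732. The order of mean TPM was Bnip3, Hif1a, Egln2, Egln1, Egln3, Epas1, Hif3a, Vhl, Arnt and Hif1an. Neighbours in this order did not overlap between replicates, except Egln2 with Egln1 and Epas1 with Hif3a. The gap between the lowest value of the higher gene and the highest value of the lower gene was narrow for Egln1 over Egln3 (0.26 TPM) and for Vhl over Arnt (0.30 TPM), so these neighbours were barely separated.

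**Figure D1:**
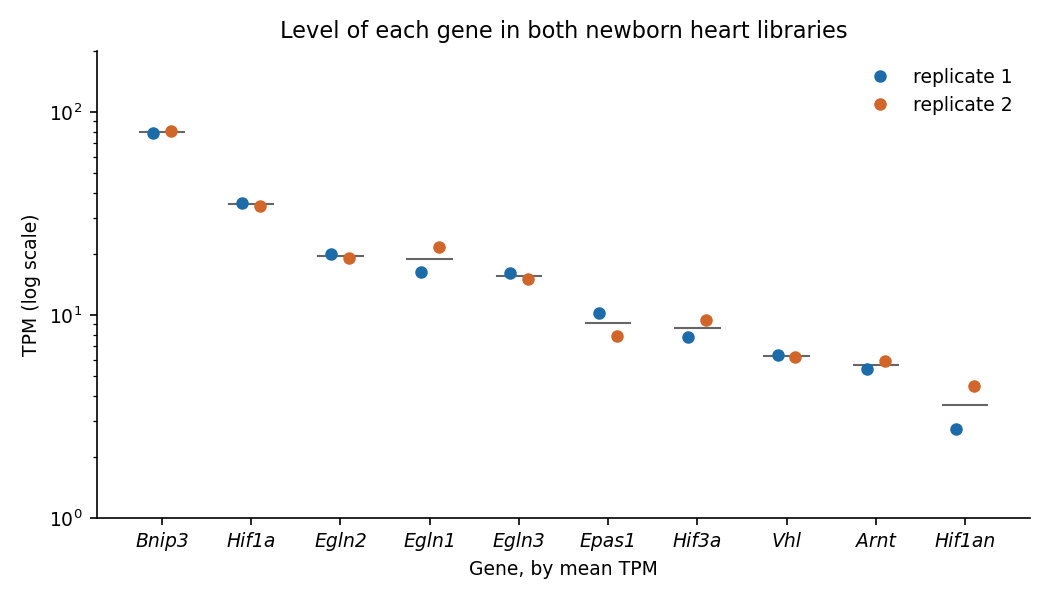
Level of each of the 10 genes in TPM on a log scale, with 1 point per replicate and a line at the mean. Bnip3 and Hif1a stand above the other 8 genes, and the points of Egln2 and Egln1, and of Epas1 and Hif3a, cross.

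Hif1a (ENSMUSG00000021109.9, chr12:73901375-73947530, plus strand), the alpha subunit gene found in most tissues, was the leading alpha subunit transcript. Its TPM was 35.6 in replicate 1 and 34.4 in replicate 2 (35.0 ± 0.841, SD, n = 2), from 13992 and 13971 counts. The replicates were close, with a log2 difference of -0.07. Epas1 (ENSMUSG00000024140.9, chr17:86753700-86833410, plus strand) encodes HIF-2 alpha, an alpha subunit best known from endothelial cells. It was at 10.3 and 7.88 TPM (9.07 ± 1.68), from 5439 and 4384 counts. Epas1 was lower in replicate 2, with a log2 difference of -0.40 in TPM and -0.39 in counts.

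Hif3a (ENSMUSG00000004328.11, chr7:17031507-17062427, minus strand) encodes an alpha subunit with several splice forms, of which some inhibit the other factors. It was at 7.74 and 9.42 TPM (8.58 ± 1.19), from 4924 and 4648 counts. Its direction depended on the scale: replicate 2 was higher in TPM (log2 difference 0.26) and lower in counts (-0.16). The effective length that turns counts into TPM was 6026 nucleotides in replicate 1 and 4453 in replicate 2, and its transcript models are described below.

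Within the alpha subunits the share of Hif1a was nearly the same in both isolates by TPM, but less so by counts (57.5% and 60.7%). It took 66.4% and 66.5% of the summed TPM of the 3 genes (66.5 ± 0.0891%), which was 53.6 TPM in replicate 1 and 51.7 in replicate 2. Epas1 took 19.1% and 15.2% (17.2 ± 2.76%) and Hif3a 14.4% and 18.2% (16.3 ± 2.67%), so the second place in TPM changed hands between replicates. It also did in counts, where Epas1 took 22.3% and 19.1% and Hif3a 20.2% and 20.2%. Over annotated models of 500 bases or more, a limit set after the values were seen, Epas1 was higher in both replicates. There Epas1 was at 10.3 and 7.88 TPM and Hif3a at 7.63 and 6.82. Hif1a was 3.47 and 4.37 times Epas1, and 4.60 and 3.65 times Hif3a, in TPM per replicate.

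**Figure D2:**
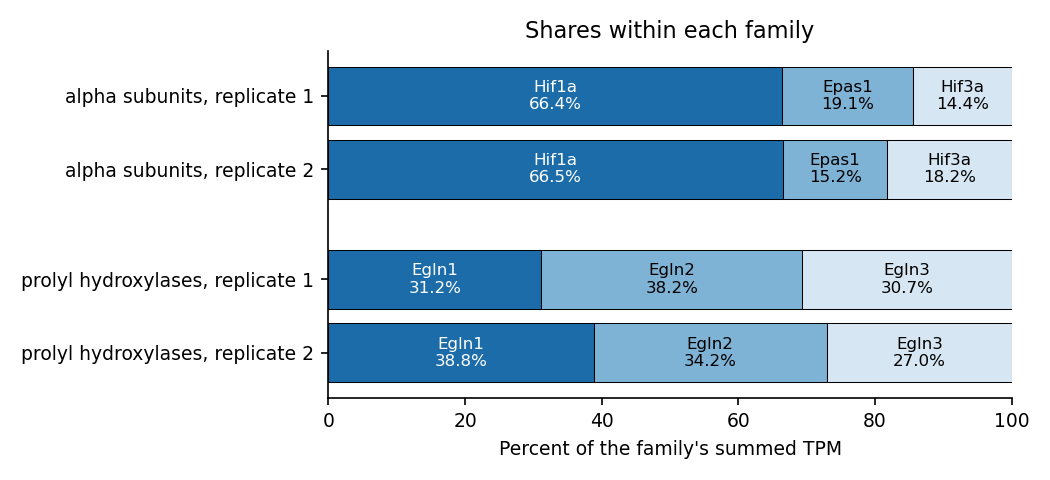
Percent of the family's summed TPM taken by each alpha subunit gene and by each prolyl hydroxylase gene, with 1 bar per replicate. Hif1a holds 66.4% and 66.5% of the alpha subunits, while each prolyl hydroxylase holds between 27.0% and 38.8%.

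A difference between 2 genes was called unequal where the log2 ratio of their TPM pointed the same way in each replicate and passed 2.15 both times. This limit is the 95th percentile of the size of replicate differences, taken over every gene with a mean TPM of 1 or above. Of 13 pairs compared, each with at least 1 of the 10 genes, 4 were unequal. In 12 of them both genes had a mean TPM of 1 or above, and 3 of these were unequal, beside 28.8% of all pairs of genes at that level, so the count was near the background. The unequal pairs were Arnt over Arnt2 (log2 3.22 and 3.53), Hif1a over Arnt (2.70 and 2.52), Hif1a over Vhl (2.47 and 2.45) and Egln1 over Hif1an (2.53 and 2.24). Hif1a over Epas1 (1.78 and 2.11) and Hif1a over Hif3a (2.19 and 1.86) had the same sign in both replicates but did not pass this limit. The limit was set by all genes, many of low level: over genes with a mean TPM of 10 or above it was 1.28, and 7 pairs passed it, with Hif1a over Epas1, Hif1a over Hif3a and Egln1 over Vhl added. Of the 12 pairs at a mean TPM of 1 or above 6 passed it, beside 47.6% of all such pairs. At the 99th percentile no pair passed.

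Nearly all Hif3a counts went to 1 annotated model with 15 exons and 6402 nucleotides (ENSMUST00000108492.4), which starts at the most upstream site. It had 4923 and 4589 counts and 7.63 and 6.78 TPM, which was 98.6% of the gene's TPM in replicate 1 and 71.9% in replicate 2. A model of 461 nucleotides and 5 exons (ENSMUST00000153833.1) had 0 counts in replicate 1 and 49.9 in replicate 2, where it reached 2.60 TPM and 27.6% of the gene's TPM. Its effective length was 172 to 173 nucleotides, so few fragments gave a large TPM, and the authors' interval for it in replicate 2 ran from 1.63 to 3.74 TPM. The long model held 98.7% of the gene's counts in replicate 2. Over models of 500 bases or more, a limit chosen after the values were seen, Hif3a was at 7.63 and 6.82 TPM and its log2 difference was -0.17, the direction of the counts.

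The short model carries an exon that neither model with 15 exons has. It is printed here because the gene's TPM was higher in replicate 2 only with the counts assigned to this model. Those counts are estimates, and reads on the exon itself were not examined. As background, the splice form known as inhibitory PAS domain protein arises when a shifted splice site is used and an exon is added behind it; the files do not name any model as this form. The added exon of the short model (chr7:17053758-17053813, minus strand, 56 bases, coding throughout) is in capitals, between the neighbouring bases of the spliced transcript in lower case.
Hif3a short model, exon 4: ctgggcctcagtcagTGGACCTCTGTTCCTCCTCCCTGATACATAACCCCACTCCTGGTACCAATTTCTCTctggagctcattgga
Its exon 3 was also 14 bases shorter at the 5′ side than that of the long model. The short model ended at position 17051954, upstream of the codon of proline 489, so it held no part of the hydroxylation window printed above.

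Another Hif3a model of 2206 nucleotides (ENSMUST00000037762.6) begins at an alternative first exon 5.75 kb downstream. It had 0 counts in replicate 1 and 9.35 in replicate 2, or 0.04 TPM there. The fourth model, of 374 nucleotides, had 1 count in replicate 1 and 0 in replicate 2. The 2 first exons join the same second exon, as these junctions show, with the start of the second exon in capitals.
Hif3a upstream first exon: gctgcagcgcgtgagGTCGAACACCGAGCT
Hif3a downstream first exon: ctgggaccaagacagGTCGAACACCGAGCT
The upstream first exon supplied 26 coding bases and the downstream one 20, so the encoded amino termini differ. The models with 15 exons also differ in their last exon, which is far longer in the upstream model, so the counts do not show how often each first exon was used.

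**Figure D3:**
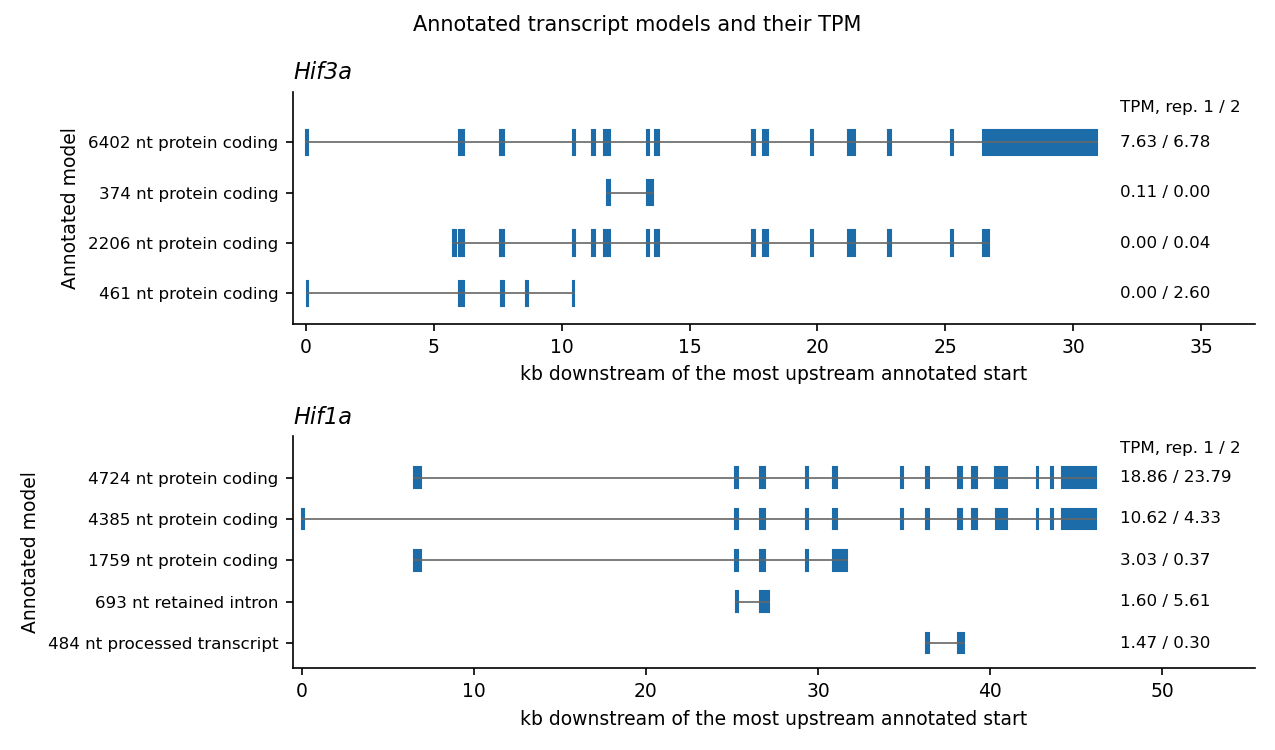
Annotated transcript models of Hif3a and Hif1a, drawn as exons (boxes) along kb from the most upstream annotated start, with the TPM of each model in replicates 1 and 2 at the right. The Hif3a model of 461 nt is at 0.00 and 2.60 TPM, and the Hif1a model from the upstream start is at 10.62 and 4.33 TPM.

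Hif1a also has 2 annotated first exons, and counts were assigned to models of both. The model from the downstream first exon (ENSMUST00000021530.7, 4724 nucleotides, start 6.53 kb downstream) had 18.9 and 23.8 TPM, from 8831 and 11687 counts. It took 53.0% of the gene's TPM in replicate 1 and 69.1% in replicate 2. The model from the upstream first exon (ENSMUST00000110461.3, 4385 nucleotides) had 10.6 and 4.33 TPM, from 4591 and 1966 counts, or 29.8% and 12.6%. The downstream model therefore led in both isolates, while the upstream model was estimated lower in replicate 2. The intervals of the upstream model did not overlap (9.46 to 11.6 and 3.80 to 4.81 TPM). Such intervals cover the estimation within a library and not the spread between isolates. Gene intervals did not overlap for 73.3% of genes with a mean TPM of 1 or above. The share over transcripts was not computed. Both models join the same second exon, shown in capitals.
Hif1a downstream first exon: gaacgagaagaaaaaGATGAGTTCTGAACG
Hif1a upstream first exon: ttagagcaattaaagGATGAGTTCTGAACG
The downstream first exon held 35 coding bases, whereas in the upstream model the annotated start codon lay in the second exon, 1 base after the junction. The models also differ at the 5′ side of exon 11, so the estimates do not rest on the first exons alone.

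The other Hif1a models were short or lacked the later exons. A protein-coding model of 1759 nucleotides, which shares the downstream first exon, had 3.03 and 0.37 TPM. A retained-intron model of 693 nucleotides had 1.60 and 5.61 TPM from 68.4 and 252 counts, and a processed transcript of 484 nucleotides had 1.47 and 0.30 TPM. These shifts between models left the gene's total level close in both replicates, as given above.

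Arnt (ENSMUSG00000015522.14, chr3:95434388-95497240, plus strand) encodes a partner with which alpha subunits bind DNA, and which the aryl hydrocarbon receptor also uses. It was at 5.39 and 5.92 TPM (5.66 ± 0.375), from 1527 and 1395 counts. As with Hif3a, the log2 difference changed sign between TPM (0.11) and counts (-0.21), and the effective length was 2686 nucleotides in replicate 1 and 2128 in replicate 2. The leading model, of 2699 nucleotides, held 49.8% of the gene's TPM in both replicates. A coding model of 4325 nucleotides held 27.1% and 9.84%, and a retained-intron model of 778 nucleotides held 4.32% and 21.2%. Arnt2, the paralog best known from brain, was below the detection limit at 0.49 and 0.42 TPM (297 and 266 counts), and Arnt was 11.0 and 14.1 times as high. The summed alpha subunit transcripts exceeded Arnt in both replicates, and Hif1a alone was 6.60 and 5.81 times as high in TPM.

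The 3 prolyl hydroxylase genes were present at similar levels. Egln2 (ENSMUSG00000058709.7, chr7:27158658-27166802, minus strand), which encodes PHD1, was at 19.9 and 19.0 TPM (19.5 ± 0.665), from 3814 and 3806 counts. Egln1 (ENSMUSG00000031987.5, chr8:124908587-124949324, minus strand) encodes PHD2, the main regulator of HIF-1 alpha in most cells. It was at 16.3 and 21.6 TPM (18.9 ± 3.74), from 5538 and 7703 counts. Egln1 was below Egln2 in replicate 1 and above it in replicate 2. Egln3 (ENSMUSG00000035105.5, chr12:54178981-54203860, minus strand) encodes PHD3, itself a target gene of these factors, and was at 16.0 and 15.0 TPM (15.5 ± 0.693), from 4009 and 3948 counts.

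As shares of their summed TPM, which was 52.2 in replicate 1 and 55.6 in replicate 2, Egln1 took 31.2% and 38.8% (35.0 ± 5.40%). Egln2 took 38.2% and 34.2% (36.2 ± 2.83%), and Egln3 30.7% and 27.0% (28.9 ± 2.56%). Each gene thus held a similar share of the family. None of the 3 pairs of prolyl hydroxylase genes was unequal, with log2 ratios between -0.29 and 0.52, and by the same limit none of the 3 alpha subunit pairs was either. Egln1 and Egln3 each have 1 annotated model, and the leading Egln2 model held 98.7% and 97.7% of its TPM, so these levels do not depend on how reads were split between models.

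Vhl (ENSMUSG00000033933.9, chr6:113623959-113631633, plus strand) encodes the subunit that recognises the hydroxylated prolines printed above. It was at 6.34 and 6.22 TPM (6.28 ± 0.0849), from 1676 and 1726 counts, all in 1 of its 3 models. Vhl was at 0.39 and 0.29 times the level of Egln1, and it had the smallest SD in TPM of the 10 genes. This SD is not scaled to the level of a gene. By log2 difference Bnip3 was closer between replicates in TPM (0.01, against -0.05 for Vhl). In counts Vhl was closer (-0.03, against -0.07 for Bnip3). Hif1an (ENSMUSG00000036450.4, chr19:44562850-44576274, plus strand) encodes factor inhibiting HIF, the asparagine hydroxylase. It was at 2.74 and 4.48 TPM (3.61 ± 1.23), from 1672 and 2912 counts. Hif1an thus had both the lowest level and the largest relative difference between isolates, and its leading model held 97.6% and 99.3% of its TPM.

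Bnip3 (ENSMUSG00000078566.4, chr7:138890836-138909519, minus strand) encodes a mitochondrial protein that promotes mitophagy and cell death and is induced by these factors in low oxygen. It was at 78.8 and 80.7 TPM (79.7 ± 1.36), from 10569 and 10604 counts. Bnip3 was 2.28 times Hif1a by mean TPM, and its replicates lay 43.2 TPM or more above those of Hif1a. It was the 1 member whose expected counts were not whole numbers, so some reads also matched another locus, but the authors' posterior SD of its count was below 1 in both replicates (0.23 and 0.42). The leading model of 1756 nucleotides held 81.2% and 73.1% of its TPM, and a coding model of 719 nucleotides held 18.7% and 26.2%.

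Its paralog Bnip3l, also a mitophagy receptor gene, was at 25.6 and 39.5 TPM from 4734 and 5351 counts. Bnip3 was 3.08 and 2.04 times as high in TPM. Much of the difference in Bnip3l TPM sat in a processed transcript of 789 nucleotides with 10.3 and 27.8 TPM, while its leading coding model had 13.3 and 11.6 TPM. In counts Bnip3l differed by a log2 of 0.10, against 0.60 in TPM.

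None of the 10 genes differed by 2-fold or more between the isolates in TPM, beside 19.0% of the 11594 genes with a mean TPM of 1 or above (10.1% higher and 8.90% lower in replicate 2). In counts, none passed 2-fold either, beside 15.0%. Genes of higher level differed less often: where the mean TPM was 5 or above the share was 11.2%, and 9 of the 10 genes are in that range. Hif1an had the largest difference (log2 0.67 in TPM and 0.72 in counts), followed by Epas1 (-0.40) and Egln1 (0.38 in TPM and 0.40 in counts). Hif1an was the 1 gene past 1.5-fold, beside 36.3% of the same 11594 genes. The authors' TPM intervals of the replicates did not overlap for 5 genes (Egln1, Egln3, Epas1, Hif3a and Hif1an), beside 73.3% of all genes with a mean TPM of 1 or above, and those intervals cover the estimation within a library and not the spread between isolates.

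**Figure D4:**
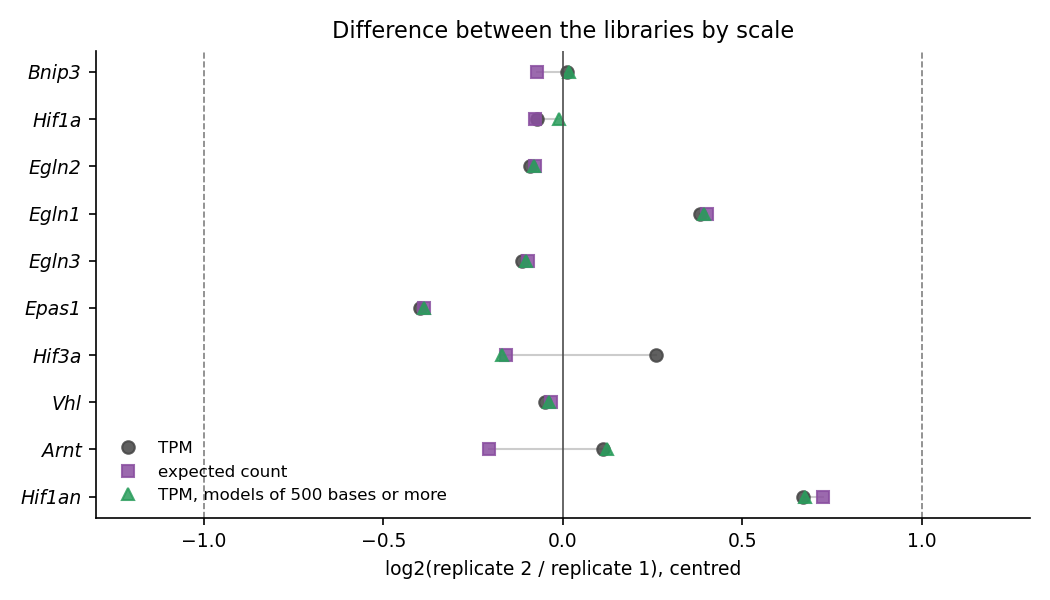
Difference between replicates for each gene, as the log2 ratio of replicate 2 to replicate 1 centred on the median of those 11594 genes, from TPM (circles), expected counts (squares) and TPM over models of 500 bases or more (triangles). All points lie within the dashed lines at 2-fold, and the circles and squares of Hif3a and Arnt fall on opposite sides of 0, as do those of Bnip3 by a small margin (0.01 and -0.07).

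Other genes of the pathway were described by 6 lists with 128 symbols, of which 127 were found. Of these, 114 had a mean TPM of 1 or above and 10 of them differed by 2-fold in TPM (8.77%, beside 19.0% of all genes). In counts 6 did (5.26%, beside 15.0%), of which 5 were past 2-fold in both. Genes of higher level differed less often in TPM (11.2% of all genes at a mean TPM of 5 or above). The lists were not matched to all genes by level, and the part of level in their lower shares was not tested. With the median of all genes at 0, the median log2 difference of the lists ran from -0.16 to 0.13. Of the 127 genes 110 were detected. The detected counts of each list below stand beside 47.1% of nuclear protein-coding genes and 24.2% of all genes.

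Among partners and coactivators with a PAS or related role, 12 of 19 genes were detected. The CITED proteins compete with the alpha subunits for p300 and CBP, and Cited1 (42.4 and 43.1 TPM), Cited4 (27.5 and 32.4) and Cited2 (16.6 and 15.2) were the highest, followed by the coactivator gene Ncoa2 (12.5 and 10.1). The neural PAS factor genes Npas1, Sim1 and Sim2 were at 0 and Npas3 at 0.07 TPM in both replicates. Ncoa3 was the 1 gene past 2-fold (4.60 and 12.9 TPM), but not in counts (log2 0.39).

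All 11 genes of the VHL ubiquitin ligase list, which also holds conjugating enzymes and deubiquitinases, were detected as transcripts. Elob, the elongin B gene, was at 102 and 133 TPM, the ubiquitin-conjugating enzyme gene Ube2d3 at 95.2 and 95.8, Nedd8 at 32.9 and 44.6 and the deubiquitinase gene Usp20 at 21.3 and 20.7. Ube2d1 was lower in replicate 2 (12.2 and 5.19 TPM, log2 -1.24 and -1.05 in counts). Of other regulators of alpha subunit stability 16 of 17 found were detected, led by Rack1 (347 and 350 TPM), Hsp90ab1 (222 and 190) and Fkbp8 (110 and 116). Hsp90aa1 (113 and 48.0 TPM) and Sat1 (7.39 and 15.2) were past 2-fold in TPM but not in counts, where their log2 differences were -0.34 and 0.67.

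All 21 genes of the list of other oxygen-using dioxygenases were detected. This list holds collagen hydroxylases, histone and DNA demethylases and related genes. P4hb, the protein disulfide isomerase that serves as a subunit of the collagen prolyl hydroxylases, was the highest (62.8 and 61.5 TPM), followed by the lysyl hydroxylase gene Plod1 (21.9 and 28.3), the histone demethylase gene Kdm4b (20.9 and 16.4) and P4ha2 (17.5 and 13.0). Kdm5a was past 2-fold in TPM (4.28 and 9.21) but not in counts (log2 0.26). P4ha2, singled out after its values were seen, was lower in replicate 2 in TPM (-0.45) and higher in counts (1.19).

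Of 45 target genes of these factors 37 were detected, and the glycolytic enzyme genes led them. Gapdh was at 1949 and 1762 TPM, Aldoa at 1152 and 1147, Ldha at 465 and 424 and Tpi1 at 430 and 408. Epo, the erythropoietin gene, had 0 counts in both libraries. Of 39 targets with a mean TPM of 1 or above 11 were higher and 28 lower in replicate 2. Centring on the median split all genes at that level evenly (5797 and 5797). Other lists were uneven too, with 5 higher and 11 lower for other stability regulators and 13 and 6 for mitophagy genes. The split was 7 and 6 for the PAS list, 4 and 7 for the VHL ligase list and 10 and 11 for the dioxygenases. The median log2 difference of the targets was -0.16 in TPM and -0.10 in counts. Past 2-fold were Ankrd37 (0.31 and 11.2 TPM from 21 and 185 counts), the lung-type cytochrome oxidase subunit gene Cox4i2 (3.48 and 7.90), Fam162a (38.8 and 12.9) and the glycolysis regulator gene Pfkfb3 (1.78 and 0.64). These 4 were past 2-fold in counts too, and they lay on both sides of 0.

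Of 19 mitophagy genes 18 were detected, with a median log2 difference of 0.13. The LC3 gene Map1lc3a was at 175 and 215 TPM, Fkbp8 at the values above, the prohibitin gene Phb2 at 107 and 108 and the kinase gene Pink1 at 78.8 and 87.3, close to Bnip3.

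**Figure D5:**
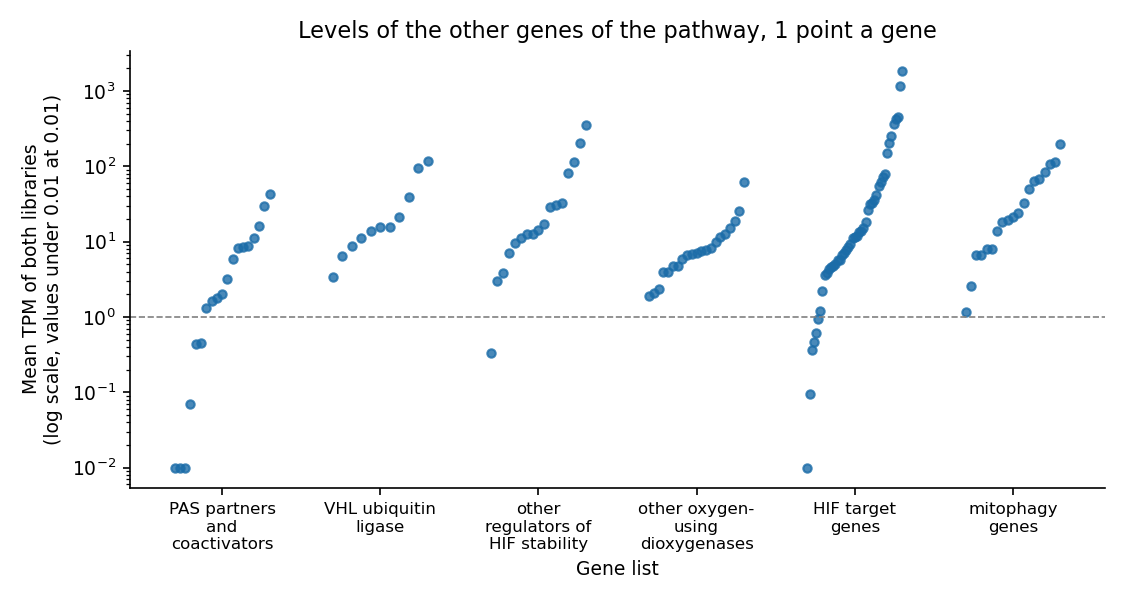
Mean TPM of both libraries for each gene of the 6 lists on a log scale, with 1 point per gene and genes sorted within a list. All genes of the VHL ubiquitin ligase and dioxygenase lists lie above the dashed line at 1 TPM, while 3 genes of the PAS list and Epo are plotted at the lower edge.

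Hypoxia-inducible factors bind the core sequences ACGTG and GCGTG, and promoters of 300 bases (250 before to 50 after the start, RefSeq, GRCm38.p6) were searched for both on either strand. Of the 10 genes 9 were matched in the promoter table, and Epas1 was not. A core was present for 7 of the 9 genes, beside 43.8% of all 32851 promoters, and ACGTG for 5, beside 19.6%. A gene was counted if any of its promoters matched, whereas the background counts each promoter, so the units differ. The promoters of the 9 genes were also richer in G and C, with a median of 63.2% (both Egln2 promoters counted) against 52.7% over all promoters. Of 35 target genes with a promoter 31 had a core (88.6%). Vhl and Hif1an had no match in this window. The longer form TACGTG was present in 1 of the 9, Egln1, beside 3.23% of all promoters.

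The promoters of Bnip3, the highest of these genes, of Egln1, the gene with the longer form, and of the downstream Hif1a start, whose model led in both isolates, are shown with matches of either strand in capitals (CACGT and CACGC are the reverse complements, and adjoining or overlapping matches run together).
Bnip3, chr7:138909457-138909756, minus strand: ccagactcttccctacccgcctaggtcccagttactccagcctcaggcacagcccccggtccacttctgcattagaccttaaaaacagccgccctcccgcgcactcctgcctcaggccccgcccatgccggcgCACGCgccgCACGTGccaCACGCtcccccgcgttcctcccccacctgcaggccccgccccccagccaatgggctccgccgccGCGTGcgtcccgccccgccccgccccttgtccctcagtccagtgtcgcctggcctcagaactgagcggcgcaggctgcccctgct
Egln1, chr8:124949205-124949504, minus strand: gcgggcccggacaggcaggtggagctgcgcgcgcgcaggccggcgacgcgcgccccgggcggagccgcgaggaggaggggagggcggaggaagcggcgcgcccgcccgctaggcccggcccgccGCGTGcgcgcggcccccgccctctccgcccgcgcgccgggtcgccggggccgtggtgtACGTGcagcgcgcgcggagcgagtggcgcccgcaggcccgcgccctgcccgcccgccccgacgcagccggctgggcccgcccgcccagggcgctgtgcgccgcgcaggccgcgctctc
Hif1a, chr12:73907617-73907916, plus strand: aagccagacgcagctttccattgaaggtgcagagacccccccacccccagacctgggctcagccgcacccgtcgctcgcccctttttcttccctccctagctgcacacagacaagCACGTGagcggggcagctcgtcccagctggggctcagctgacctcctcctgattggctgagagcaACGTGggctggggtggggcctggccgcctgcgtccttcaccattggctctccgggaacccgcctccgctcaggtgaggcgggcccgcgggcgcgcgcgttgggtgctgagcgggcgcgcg
Bnip3 held 5 matches, Egln1 2 and Hif1a 3, where CACGTG counts on both strands. Egln2 held 6 in the promoter of its upstream start, Hif3a 2, and Egln3 and Arnt 1 each. Binding was not measured in this series, so a match is a description of the letters alone.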

How the data were processed

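Total RNA of newborn mouse heart was sequenced in 2 biological replicates of 1 group. Per the labels, the authors worked on mm10, and the deposited notes name GENCODE M4, with aligner and versions not given in the sources used here. Expected counts, as deposited, estimate the fragments of a gene or transcript and were not normalized between libraries. The deposited TPM values are such counts per effective length, scaled to one common total in every table. The authors' FPKM values served as an alternative. A transcript's share is the percent of its gene's TPM, per the file headers. The level of the deposited TPM intervals is not stated.

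Symbols, coordinates and exons were taken from GENCODE M21 (GRCm38) by unversioned identifier, for 42462 of 43346 genes, and promoters from RefSeq (GRCm38.p6). Annotated genes sharing exon bases with Hif1a, Bnip3 and Egln2 were at 0 where the tables list them (Gm15283 and Cyp2t4); the others (Gm49321 and Gm45507) are not in the tables. Protein sequences were not compared, beyond the search of the translated alpha subunit coding sequences for the hydroxylation patterns. Replicate differences were the log2 of the TPM ratio after adding 0.1, less the median over genes whose mean TPM was 1 or above; count ratios were centred the same way. Beyond being independent isolates, nothing in the labels says how the replicates were made, so their spread may be partly technical.

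The genes, lists, pairs and thresholds were chosen with earlier results of these data known. Named were the 10 genes, Arnt2 and Bnip3l, up to 4 detected genes of highest mean TPM in each list, up to 4 under 0.1 TPM in both replicates, and those past 2-fold, of which 1 is not reported here. Tools were Python 3.11.15, numpy 2.4.6, pandas 2.3.3, matplotlib 3.10.9 and, for TMM factors on expected counts rounded to whole numbers, edgeR 4.0.16 in R 4.3.3. Alternatives covered thresholds, pseudocounts, level filters, scaling, units, estimates, model length and single replicates.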

Additional observations from a re-analysis of the deposited data

How the results depend on the processing

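All 10 genes were detected in the 7 alternatives tried (limits of 0.5 and 2 TPM, 10 counts, FPKM, posterior mean TPM and each replicate alone). The number of genes keeping their place in the order of 10 was between 6 and 10 when a replicate was left out; without replicate 1 it was 6, since Egln1 passed Egln2 and Hif3a passed Epas1. None was past 2-fold in 10 of 11 alternatives, and 1 was at 1.5-fold. Unequal pairs numbered 4 in the main setting, 0 at the 99th percentile and 7 with the limit from genes at 10 TPM or more; they numbered 4 without replicate 1 and 5 without replicate 2. In counts not divided by length, which favour long transcripts, the shares were 59.1% for Hif1a, 20.7% for Epas1, 20.2% for Hif3a, 45.6% for Egln1 and 26.6% for Egln2; over models of 500 bases or more, added after the data were seen, Hif1a took 67.7%. With TACGTG in place of the core, 1 promoter matched. No paired analysis was possible because the series has 1 group. The library totals did not limit detection of these genes, while short models with few counts, such as that of Hif3a, limit the TPM.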
